A study of Homo sapiens with 12 samples.

Results

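The libraries compared here measured how doxycycline-treated neuroblastoma cells responded to interferon gamma (IFNγ). SK-N-DZ is an established neuroblastoma line with amplified MYCN, and the study derived puromycin-selected clones from it that carry a doxycycline-inducible short hairpin RNA against ARID1A, a DNA-binding subunit of the SWI/SNF chromatin remodelling complex. Group D (genotype shARID1A, treatment Control) received doxycycline for 4 days, and group DI (genotype shARID1A, treatment IFN) received doxycycline for 4 days with IFNγ for 24 h. The groups without doxycycline, C (genotype WT, treatment Control) and I (genotype WT, treatment IFN for 24 h), served here as a second arm. Each group held 3 RNA-seq libraries, so that the comparison of DI with D used 6 of 12 libraries, chosen by the treatment that heads their column in the gene count table. Of 43769 genes in that table, 17165 had no count in any library and 15828 passed the filter on low counts and were tested.

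Several features of the model limit what the comparison can separate. D and DI shared the doxycycline, the hairpin and whatever loss of ARID1A it caused, and no library received doxycycline without an inducible hairpin, so these cannot be told apart. The labels do not say which clone or hairpin was sequenced, nor whether the 3 libraries of a group came from separate cultures, and p-values therefore measure only a spread between libraries that may be technical. In bulk RNA, fewer cells of a type and less RNA per cell cannot be told apart.

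IFNγ is made mainly by T cells and natural killer cells. It binds the receptor chains IFNGR1 and IFNGR2, whose bound kinases JAK1 and JAK2 activate transcription factors of the STAT family. Paired STAT proteins enter the nucleus and bind gamma-activated sites (GAS), and the transcription factor IRF1, itself induced this way, then binds interferon-stimulated response elements (ISRE) in a second wave that includes the genes of antigen presentation. Neuroblastoma cells, and MYCN-amplified ones in particular, are known for very low MHC class I at rest, and IFNγ is the classical agent that restores it.

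The depth was even. D held 16617535 to 20338499 counts per library and DI 19033653 to 21790869, and a count of 3, used here as the detection floor, was worth 0.135 to 0.174 CPM (counts scaled to library size, with TMM factors) in these libraries. Floors, and the intervals named as counting intervals, cover counting error only, since reads without molecular identifiers are not independent molecules. ARID1A was at 197, 159 and 158 CPM in D and at 151, 133 and 148 CPM in DI, against 197, 186 and 165 CPM in C and 192, 203 and 194 CPM in I. It did not pass the edgeR test in D against C (log2 difference -0.09, adjusted p = 0.788), in DI against I (-0.44, adjusted p = 0.115) or in DI against D (-0.25, adjusted p = 0.747). With p adjusted over all genes tested, the libraries labelled shARID1A thus did not show a called loss of the targeted mRNA. Every DI library nevertheless lay below every I library and every D library, while D and C overlapped. The standard error of the difference between DI and I was 0.11. Markers of the labelled cell type were present: DBH, the enzyme that makes noradrenaline, was at 85.6 to 371 CPM in D and 79.1 to 417 CPM in DI, while TH, the first enzyme of catecholamine synthesis, was at 0.695 to 7.04 CPM in D and 0.766 to 3.08 CPM in DI. Of 13 leukocyte markers, 3 passed the filter and none was called, their summed share of counts was 0.00071% to 0.00124% in D and 0.000385% to 0.00141% in DI, and PTPRC (CD45) had counts of 0, 0 and 1 in D and 0, 0 and 16 in DI replicates 1 to 3. Mitochondrially encoded mRNAs took 0.856% to 1.30% of counts in D and 0.768% to 2.58% in DI, where replicate 1 was the highest, and their part in the results was not tested.

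IFNγ changed 273 genes in doxycycline-treated cells, 1.72% of the genes tested, most of them upward. By edgeR's quasi-likelihood test with Benjamini-Hochberg adjustment, 265 genes rose, which was 1.67% of the genes tested, and 8 fell, which was 0.0505%. The genes that rose had a median log2 fold change of 3.37, or 2.99 with the genes that had no count in D set at their lower bound, against -0.01 over all genes tested. A rise of at least 5 on the log2 scale was seen for 105 of them and a rise under 1 for 43. No count was found in any D library for 42 of the genes that rose, and 72 had no D library above the floor, while 63 reached a mean of at least 100 CPM in DI. Those 72 passed the filter on low counts only through libraries of other groups, so a rise was the only change they could show. Genes without counts in D are also among the tested members of the gene lists below, in their counts and medians. For all 273 called genes the 3 DI values lay outside the range of the 3 D values, as they did for 9.55% of the genes tested. A replicate block, fitted over all 12 libraries, gives each replicate number 1 effect shared by the 4 groups, and so does not pair DI with D alone. It raised the count to 706 genes (4.46% of those tested), 596 higher (3.77%) and 110 lower (0.695%), and included all 273. The share of higher genes among those called was 84.4% with this block, 69.0% with the block in the 6 libraries alone (1035 higher, 464 lower) and 62.4% with the block within each arm (1105 higher, 665 lower).

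**Figure D1:**
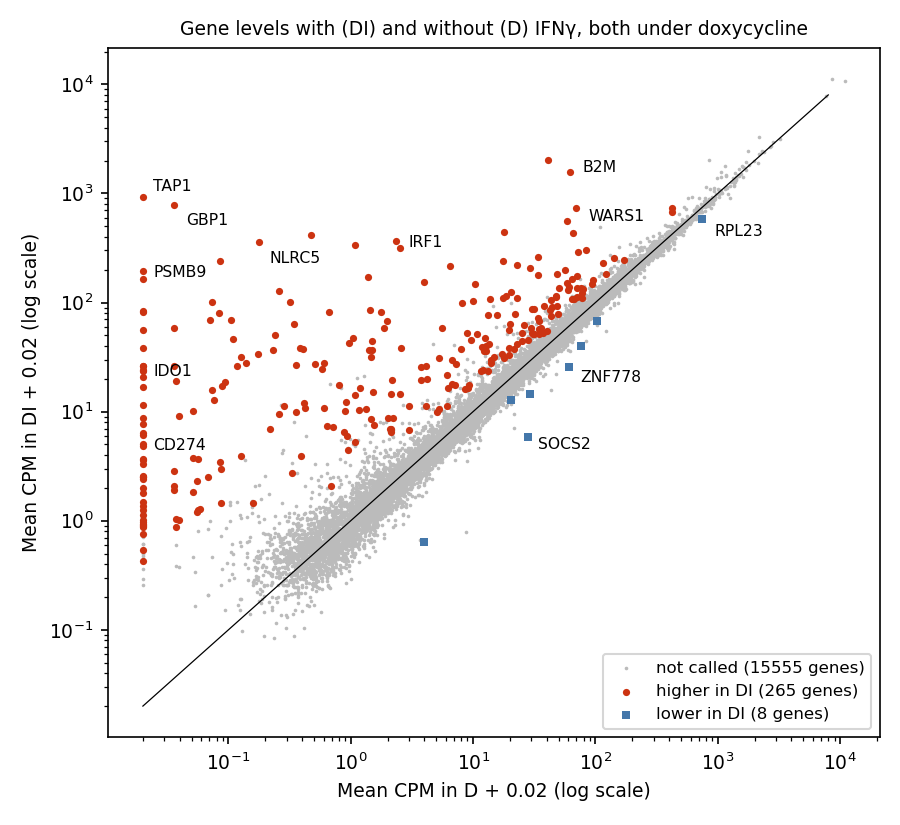
Mean level of each tested gene in D (horizontal axis) and DI (vertical axis), both as TMM-scaled CPM plus an offset of 0.02 on log axes, with called genes coloured. The genes that rose spread upward from the left edge, where D had no count, while the 8 genes that fell lie close below the diagonal.

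The receptor and kinase genes were present before IFNγ and mostly stayed at the same level. IFNGR1 was at 26.9 ± 2.74 CPM in D and 28.7 ± 1.65 CPM in DI (mean ± SD, n = 3), a log2 difference of 0.09 with a 95% interval of -0.23 to 0.42. IFNGR2 differed by 0.18 (-0.04 to 0.40) and JAK1 by 0.11 (-0.18 to 0.40), and none of these passed the test. Of 20 genes of the receptor and JAK-STAT list, 4 rose and 16 did not pass, and the list's median log2 difference was 0.18. With the replicate block 7 members were called higher.

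STAT2, a transcription factor of the type I interferon pathway, was at 20.5, 28.3 and 20.2 CPM in D and at 117, 116 and 95.5 CPM in DI. It rose 4.76-fold (edgeR adjusted p = 7.61e-05), and every DI library lay above every D library. STAT3 rose 3.60-fold (edgeR adjusted p = 0.00524) and JAK2 4.70-fold (edgeR adjusted p = 0.00064), so that of the receptor's kinases JAK2, the less abundant at rest, was the one called. Per kilobase of exon, mean JAK1 was at 8.77 reads per kilobase of exon, scaled to library size (RPKM), in D and JAK2 at 0.682 RPKM, and in DI they were at 9.47 and 3.21 RPKM.

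Interferon regulatory factors (IRFs) rose in 6 of 7 members tested, with a median log2 difference of 2.13. IRF1, the factor that carries the secondary response, was at 1.91, 2.23 and 2.90 CPM in D and at 376, 342 and 383 CPM in DI. Its rise was 157-fold (log2 7.29 ± 0.17, edgeR adjusted p = 3.47e-09), and its DI libraries were close together. IRF8, a factor best known from myeloid cells, had no count in D and was at 21.6, 44.6 and 12.03 CPM in DI, at least 166-fold above the floor (edgeR adjusted p = 0.00409). IRF2, which competes with IRF1 for the same sites, rose 4.42-fold (edgeR adjusted p = 0.000233). IRF7 rose 3.54-fold, IRF3 rose 2.18-fold and IRF9, the DNA-binding subunit of the type I interferon complex, rose 4.39-fold. The IRF9 call (edgeR adjusted p = 0.00985) was lost without D replicate 3 (0.0534).

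The promoters of these and later genes are shown because the known binding sequences of STAT proteins and of the IRFs can be looked for in them. Promoter sequences came from RefSeq (GRCh38.p14, 250 bases before to 50 after the gene start), printed 5′ to 3′ along the gene in lower case, with capitals marking matches to TTCNNNGAA, the GAS core, or to the ISRE core, GAAA and GAAA with any 2 bases between them, on either strand. IRF1 lies on the minus strand of chromosome 5 (chr5:132490724-132491023) and held the GAS core TTCCCCGAA at positions -124 to -116. GBP1, on the minus strand of chromosome 1 (chr1:89065159-89065458), held TTTCAGTTTC, the ISRE core on the opposite strand, at -127 to -118. TAP1, on the minus strand of chromosome 6 (chr6:32853655-32853954), held the overlapping matches TTTCGATTTC at -134 to -125 and TTTCGCTTTC at -128 to -119. CXCL10, on the minus strand of chromosome 4 (chr4:76023448-76023747), held GAAAGTGAAA at -221 to -212 and is shown as a gene with a site whose mRNA stayed at or under the floor. PSMB9, on the plus strand of chromosome 6 (chr6:32853942-32854241), held neither core and is shown as a gene with a large rise and no match in this window. Its window overlaps the upstream end of the TAP1 window. The TAP1 matches lie outside the PSMB9 window but between the starts of these neighbouring genes. Of the 15 genes with the largest rise, 12 had a promoter in the table and 7 of these held either core. Either core was held by 11.1% of all promoters in the table and 8.67% of those of tested genes. Among the genes that rose it was 40.7%.
IRF1: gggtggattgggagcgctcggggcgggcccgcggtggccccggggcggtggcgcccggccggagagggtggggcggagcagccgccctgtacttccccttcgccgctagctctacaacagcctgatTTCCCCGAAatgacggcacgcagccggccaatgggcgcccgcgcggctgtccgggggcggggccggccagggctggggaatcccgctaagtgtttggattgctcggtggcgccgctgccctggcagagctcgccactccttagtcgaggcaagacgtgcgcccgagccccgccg
GBP1: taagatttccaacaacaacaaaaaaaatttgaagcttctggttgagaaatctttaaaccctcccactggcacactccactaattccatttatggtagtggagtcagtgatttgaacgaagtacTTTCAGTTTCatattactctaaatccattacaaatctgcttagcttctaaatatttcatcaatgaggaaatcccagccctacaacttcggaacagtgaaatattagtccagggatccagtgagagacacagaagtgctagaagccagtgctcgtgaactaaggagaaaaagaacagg
TAP1: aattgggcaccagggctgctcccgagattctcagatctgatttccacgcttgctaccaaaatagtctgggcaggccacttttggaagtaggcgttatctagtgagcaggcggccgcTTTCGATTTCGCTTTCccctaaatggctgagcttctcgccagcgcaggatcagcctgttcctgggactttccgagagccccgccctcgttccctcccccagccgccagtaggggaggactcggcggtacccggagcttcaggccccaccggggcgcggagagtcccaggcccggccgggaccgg
CXCL10: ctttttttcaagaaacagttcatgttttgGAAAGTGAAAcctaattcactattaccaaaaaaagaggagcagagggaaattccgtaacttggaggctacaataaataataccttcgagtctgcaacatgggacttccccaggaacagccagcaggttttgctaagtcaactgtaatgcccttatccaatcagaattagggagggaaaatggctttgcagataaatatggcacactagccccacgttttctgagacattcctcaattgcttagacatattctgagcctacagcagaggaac
PSMB9: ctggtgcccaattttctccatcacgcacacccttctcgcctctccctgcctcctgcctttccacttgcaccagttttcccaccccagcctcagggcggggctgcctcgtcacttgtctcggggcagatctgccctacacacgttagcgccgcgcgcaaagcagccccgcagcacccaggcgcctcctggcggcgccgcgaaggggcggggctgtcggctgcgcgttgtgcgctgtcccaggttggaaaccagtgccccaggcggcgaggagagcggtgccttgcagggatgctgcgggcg

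The ISRE core was found in 3.65% of all 27305 promoters of the table and in 2.66% of the 11944 tested genes with a promoter in it. Among the genes that rose, 194 of 265 had a promoter in the table and 26.8% of them held the ISRE core. TTCNNNGAA was found in 7.88% of all promoters, 6.31% of those of tested genes and 18.6% of those of the genes that rose. A match describes letters in this window and does not show that a factor binds there.

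Negative feedback genes of the pathway rose in 6 of 10 members and fell in 1, SOCS2, which is described with the genes that fell. SOCS1, the inhibitor that binds JAK kinases directly, was at 0.191, 0.621 and 0.927 CPM in D and at 32.0, 23.9 and 28.2 CPM in DI. This was a rise of 5.61 ± 0.51 on the log2 scale (edgeR adjusted p = 7.46e-05). USP18, which removes ISG15 and restrains interferon receptor signalling, rose 40.3-fold (edgeR adjusted p = 0.0033). SOCS3 was at 0.899 ± 0.716 CPM in D and 12.3 ± 4.41 CPM in DI (edgeR adjusted p = 0.0196), a call that was lost without D replicate 1 (0.121), D replicate 3 (0.0612), DI replicate 1 (0.0678) or DI replicate 2 (0.0571).

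MHC class I antigen presentation rose as a pathway: 13 of 16 members tested were called higher, and the chaperones CALR, CANX and PDIA3 were the 3 that did not pass. The list's median log2 difference was 4.23, or 3.86 with genes without counts in D at their bound. B2M, the invariant light chain, was at 66.7, 67.4 and 50.2 CPM in D and at 1423, 1539 and 1707 CPM in DI, a 25.3-fold rise (edgeR adjusted p = 7.16e-08). The class I heavy chains started lower. HLA-C was at 0.0849 ± 0.108 CPM in D and at 62.1, 60.9 and 85.0 CPM in DI (log2 9.54 ± 0.48, edgeR adjusted p = 6.6e-07). HLA-B rose from 0.239 ± 0.334 to 128 ± 33.4 CPM (edgeR adjusted p = 1.53e-05), and HLA-E, the ligand of the inhibitory natural killer receptor NKG2A, rose from 1.06 ± 1.09 to 340 ± 86.1 CPM (edgeR adjusted p = 4.04e-05). HLA genes are near-identical in part, and reads may be split among them.

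Peptide transport and the regulator of the pathway rose from near 0. TAP1, a subunit of the peptide transporter, had no count in any D library and was at 895, 939 and 956 CPM in DI, at least 5912-fold above the floor (edgeR adjusted p = 4.08e-06). TAP2, the other subunit, had counts in D replicate 1 only and was at 77.7, 78.9 and 84.4 CPM in DI (edgeR adjusted p = 3.4e-07). NLRC5, the transactivator of the class I genes, was at 0, 0.414 and 0.0579 CPM in D and at 367, 365 and 337 CPM in DI (log2 11.09 ± 0.54, edgeR adjusted p = 5.8e-07). For all of these the DI libraries differed little from each other. TAPBP (tapasin, which loads peptide) rose 9.67-fold, and ERAP1, the peptidase that trims peptides in the endoplasmic reticulum, rose 6.20-fold. HLA-F had no count in D and 2.00, 1.44 and 3.78 CPM in DI, at least 15.3-fold above the floor.

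All 5 immunoproteasome genes rose, and none of the 3 constitutive catalytic subunits they replace did (median log2 difference 0.02). PSMB9 had no count in D and was at 176, 178 and 236 CPM in DI, at least 1248-fold above the floor (edgeR adjusted p = 1.5e-06). PSMB8 had none in D and was at 70.2, 66.0 and 110 CPM in DI, at least 522-fold. PSMB10 rose 99.9-fold from 0.368 ± 0.229 to 38.3 ± 8.57 CPM (edgeR adjusted p = 1.58e-06). The activator subunits PSME1 and PSME2 were expressed before IFNγ and rose 7.70-fold and 5.22-fold. PSMB8, PSMB9, TAP1 and PSMB8-AS1 overlap or adjoin, and the strand setting of the counting is not given in the sources used here, so reads of overlapping genes may be counted for each other.

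**Figure D2:**
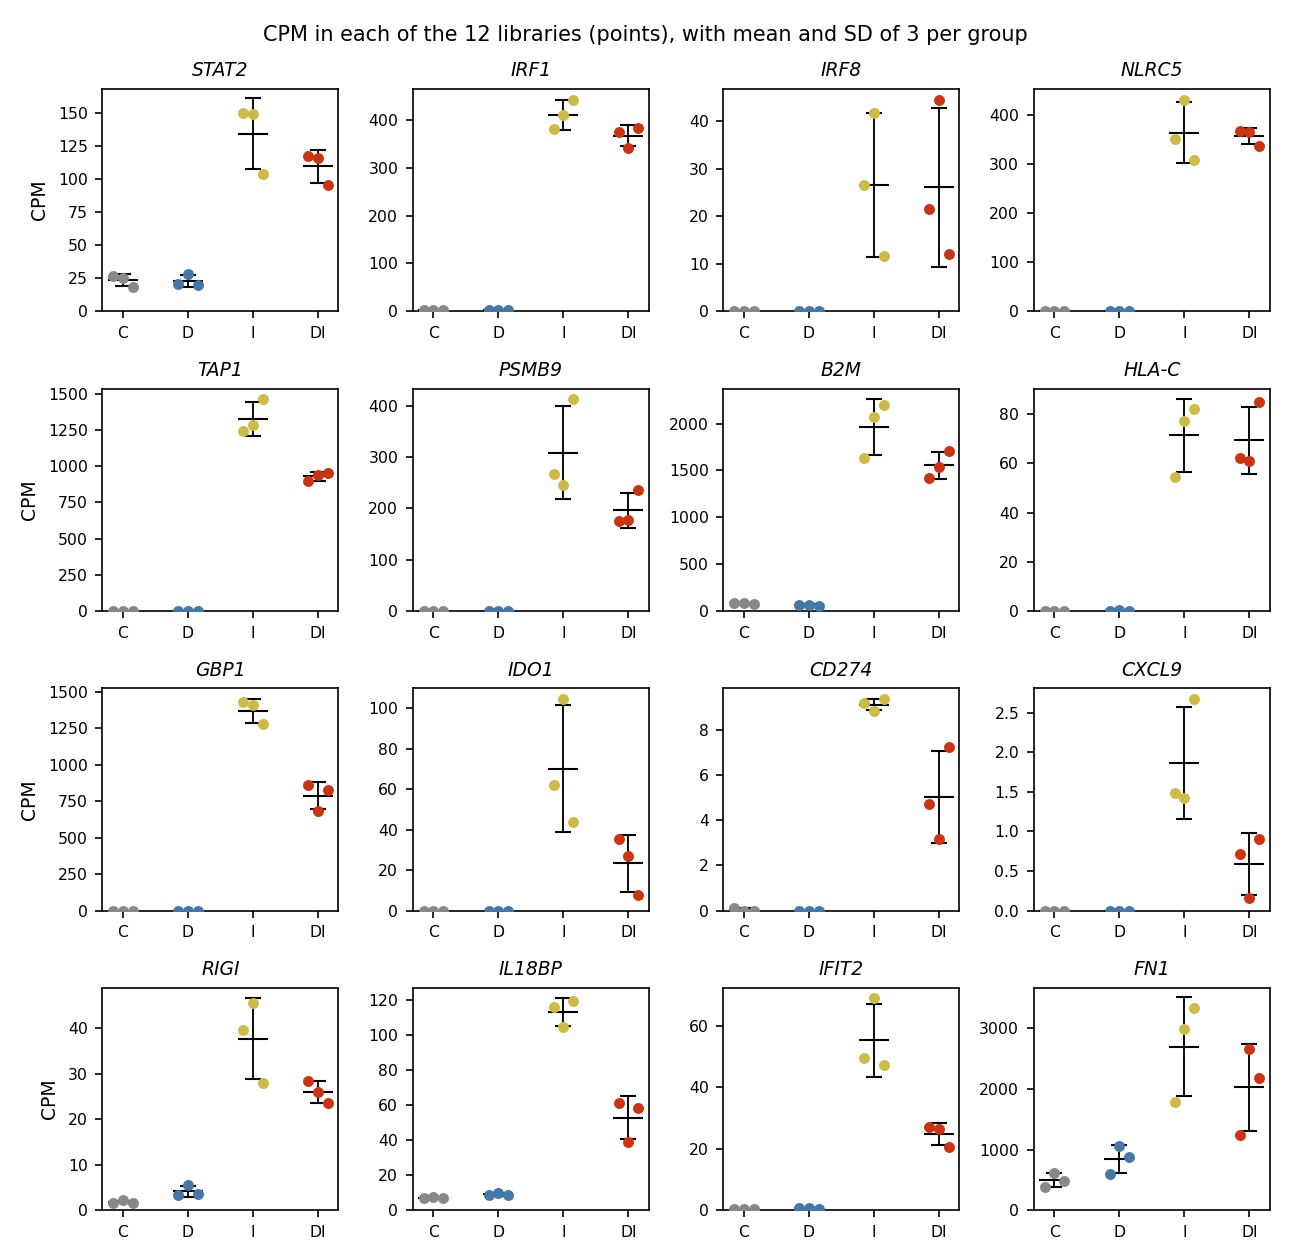
Level of 16 genes in every library, in TMM-scaled CPM on linear axes from 0, for C, D, I and DI. Each point is 1 library, and bars give the mean and SD of 3. TAP1, PSMB9, IRF8, IDO1, CD274 and CXCL9 have their 3 D points at 0 and the DI points above, at 895 to 956 CPM for TAP1 but at 0.154 to 0.901 CPM for CXCL9.

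MHC class II presentation responded in a few of its genes. Of 15 members, 5 passed the filter and 3 were called higher, with a median log2 difference of 2.56 (2.24 with the gene lacking D counts at its bound). CD74, the invariant chain, was at 4.43, 7.71 and 3.71 CPM in D and at 35.0, 42.3 and 16.5 CPM in DI, a 5.90-fold rise (edgeR adjusted p = 0.00225). CIITA, the master regulator of class II genes, was at 1.05, 1.19 and 0.637 CPM in D and at 3.70, 3.64 and 2.34 CPM in DI, and narrowly missed the threshold (edgeR adjusted p = 0.052, or 0.00702 with the replicate block). The genes of the class II heterodimers HLA-DR, HLA-DP and HLA-DQ did not reach the filter. HLA-DOB had no count in D and 12, 12 and 22 counts in DI. CTSS, the protease that degrades the invariant chain, had 21, 36 and 17 counts in DI, a ratio of 34.8 to D (counting interval 9.30 to 293), and its call (edgeR adjusted p = 0.0106) was lost without D replicate 1 (0.0539).

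Guanylate-binding proteins (GBPs) and apolipoproteins L rose steeply. The GBPs are interferon-induced GTPases that attack intracellular pathogens, and 6 of 8 members of their list passed as higher (median log2 7.96, or 5.66 at the bounds). GBP1 had a single count in the 3 D libraries together and was at 859, 685 and 825 CPM in DI, a ratio of 45529 with a counting interval of 8171 to 1798320 (edgeR adjusted p = 2.82e-08). GBP4 was at 0.0649 ± 0.0724 CPM in D and at 283, 231 and 207 CPM in DI (edgeR adjusted p = 2.98e-07). GBP2 was at 78.4, 172 and 56.5 CPM in DI against 0.299 ± 0.0555 CPM in D, with the DI libraries more spread than those of GBP1. GBP5 stayed low at 1.80, 2.20 and 1.31 CPM in DI from no count in D. All 5 apolipoprotein L genes rose (median log2 10.21, or 10.04 at the bound). APOL1, the trypanosome lytic factor, had no count in D and was at 172, 249 and 76.9 CPM in DI, at least 1055-fold above the floor (edgeR adjusted p = 3.5e-05). APOL6 was at 0.451 ± 0.387 CPM in D and 413 ± 80.4 CPM in DI (edgeR adjusted p = 7e-06). Reads of the GBPs and of the apolipoproteins L may be shared between paralogs.

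The antiviral genes usually tied to type I interferon were part of the response: 22 of 28 effectors rose, with a median log2 difference of 5.01 (3.60 at the bounds). IFIT3, which binds viral RNA with its partners, had 3 counts in D and was at 117, 106 and 78.3 CPM in DI, a ratio of 1909 (counting interval 653 to 9259, edgeR adjusted p = 2.4e-07). IFIT1 rose 24.8-fold to 37.1 ± 11.3 CPM, whereas IFIT5 was already at 44.3 ± 4.50 CPM in D and rose 2.07-fold. IFI35 rose from 0.222 ± 0.0984 to 50.9 ± 6.76 CPM (edgeR adjusted p = 1.66e-07). IFI27 rose from 0.493 ± 0.178 to 27.4 ± 4.82 CPM and IFITM1, which blocks viral entry, from no count to 37.9 ± 17.1 CPM. SAMHD1, which depletes the nucleotides that viruses need, was expressed in D and rose by 2.00 ± 0.15 on the log2 scale (edgeR adjusted p = 1.63e-05). Other family members were barely there. OAS3, a sensor that activates RNase L, was at 28.8, 28.4 and 22.02 CPM in DI, while OAS2 had counts of 2, 8 and 0 and MX1 of 8, 8 and 5 in DI and neither reached the filter. BST2 (tetherin) was at 20.6, 21.5 and 1.22 CPM in D and at 125, 118 and 33.0 CPM in DI. Replicate 3 was lowest in both groups, and BST2 passed with the replicate block (edgeR adjusted p = 0.00451) but not without it (0.489).

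Sensors of nucleic acids rose in 5 of 9 members (median log2 4.58, or 3.71 at the bounds). IFIH1 (MDA5), a sensor of long double-stranded RNA, had no count in D and was at 17.4, 15.7 and 29.4 CPM in DI, at least 133-fold above the floor (edgeR adjusted p = 7.71e-05). DDX60, a related helicase, rose at least 167-fold from no count in D. RIGI, the sensor of short double-stranded RNA with a 5′ triphosphate, was at 3.43, 5.49 and 3.47 CPM in D and rose 6.27-fold to 28.4, 25.9 and 23.6 CPM (edgeR adjusted p = 7.07e-05). MAVS, the adaptor through which these RNA sensors signal, did not pass (log2 difference -0.08).

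ISG15, a ubiquitin-like modifier, rose with its activating and conjugating enzymes. Of 8 members of its list 5 passed (median log2 3.56), including USP18 and the ligase TRIM25. The 3 members that did not pass are also ligases, and 6 members were called higher with the replicate block. ISG15 itself was at 10.8, 10.5 and 9.50 CPM in D and at 177, 135 and 134 CPM in DI, a 14.4-fold rise (edgeR adjusted p = 1.47e-06). UBA7, its activating enzyme, rose from 0.155 ± 0.0468 to 33.4 ± 1.37 CPM (edgeR adjusted p = 3.96e-08), and UBE2L6, its conjugating enzyme, rose 9.60-fold to 557 ± 93.7 CPM (edgeR adjusted p = 4.09e-07). Of 13 tested members of the PARP family with DTX3L, 5 rose (median log2 0.41). PARP14 rose 127-fold to 319 ± 23.6 CPM, and the neighbours PARP9 and DTX3L, whose proteins act as a pair and whose genes share a promoter region, rose 39.5-fold and 33.1-fold. PARP1 was among the 8 members that did not pass, and 7 members were called higher with the replicate block. Of the PML body and TRIM genes, 6 of 10 rose (median log2 3.09), and all 10 did with the replicate block. PML, the scaffold of these nuclear bodies, rose 2.67-fold from 50.3 ± 6.24 CPM, SP110 had no count in D and 8.76 ± 2.02 CPM in DI, and TRIM21, a cytosolic antibody receptor, rose 94.2-fold.

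Chemokine mRNAs of the CXCR3 group stayed at a few counts in DI. CXCL9, CXCL10 and CXCL11 are the ligands that draw T cells through CXCR3 and are textbook IFNγ targets. CXCL10 had no count in D and 1, 0 and 2 counts in DI, which stayed at or under the floor of 3 counts in each library. CXCL11 had none in D and 7, 2 and 1 in DI, and CXCL9 had none in D and 14, 3 and 20 in DI. CXCL9 did not pass (edgeR adjusted p = 0.0662), but did with the replicate block (0.0311) and without DI replicate 2 (0.0255). Differences in these chemokines were therefore barely detectable at this depth. Of 18 chemokines and cytokines, 8 passed the filter and 3 rose (median log2 4.40, or 2.33 at the bounds), against 6 with the replicate block. The called ones act on lymphocytes and macrophages: IL15, a growth factor of natural killer and memory T cells, rose 29.4-fold to 12.1 ± 3.17 CPM (edgeR adjusted p = 0.000669), its receptor chain IL15RA rose at least 23.2-fold from no count, and CSF1, the macrophage growth factor, rose from 2.55 ± 0.336 to 38.7 ± 5.19 CPM (edgeR adjusted p = 1.47e-06).

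Genes that restrain or guide lymphocytes rose in 5 of 13 members of the checkpoint and natural killer ligand list (median log2 1.31), and in 8 with the replicate block. CD274 (PD-L1) had no count in D and was at 4.72, 3.18 and 7.21 CPM in DI, at least 32.0-fold above the floor (edgeR adjusted p = 0.000652). CD47, the signal against phagocytosis, was expressed at 70.6 ± 13.6 CPM in D and rose 2.49-fold. TNFRSF14 (HVEM) rose from 0.0731 ± 0.0636 to 18.8 ± 3.59 CPM, and ICAM1, the adhesion ligand of LFA-1, rose from no count to 9.60, 29.6 and 10.8 CPM, at least 106-fold. MICA, a ligand of the activating receptor NKG2D, had no count in DI. Tryptophan metabolism was represented by 2 called genes of 4 tested. IDO1, which degrades tryptophan, had no count in D and was at 35.1, 27.1 and 7.88 CPM in DI, at least 149-fold above the floor (edgeR adjusted p = 0.00414), and WARS1, the tryptophanyl-tRNA synthetase, rose 10.5-fold from 69.8 ± 26.7 to 735 ± 106 CPM (edgeR adjusted p = 8.04e-05).

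Complement genes rose in 6 of 10 members tested (median log2 3.09). C1S, a protease of the first complement component, was at 1.29, 1.97 and 0.985 CPM in D and at 98.7, 106 and 54.1 CPM in DI (60.4-fold, edgeR adjusted p = 2.95e-05), and C1R, its partner, rose 26.6-fold. SERPING1, the inhibitor of both, was at 65.4 ± 35.6 CPM in D and rose 6.60-fold (edgeR adjusted p = 0.00132). C4A and C4B, near-identical copies that share reads, also passed, the C4A call being lost without D replicate 2 (edgeR adjusted p = 0.0542). Of 18 cell death and inflammasome genes, 5 rose (median log2 0.47) and 9 did with the replicate block. CASP8, the initiator caspase often silenced in neuroblastoma, was at 0.623 ± 0.0442 CPM in D and 2.73 ± 1.05 CPM in DI and missed the threshold (edgeR adjusted p = 0.0615, or 0.0244 with the block). CASP1 and MLKL were called from at most 30 counts in a DI library, and their calls were lost on leaving out any 1 of the 6 libraries (edgeR adjusted p 0.0575 to 0.114 and 0.0905 to 0.124).

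Counted together, 9 interferon lists of 123 genes took 0.216% to 0.244% of all counts in D and 1.08% to 1.14% in DI, 4.79 times as much by the means. In the arm without doxycycline they took 0.229% to 0.240% in C and 1.40% to 1.57% in I.

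**Figure D3:**
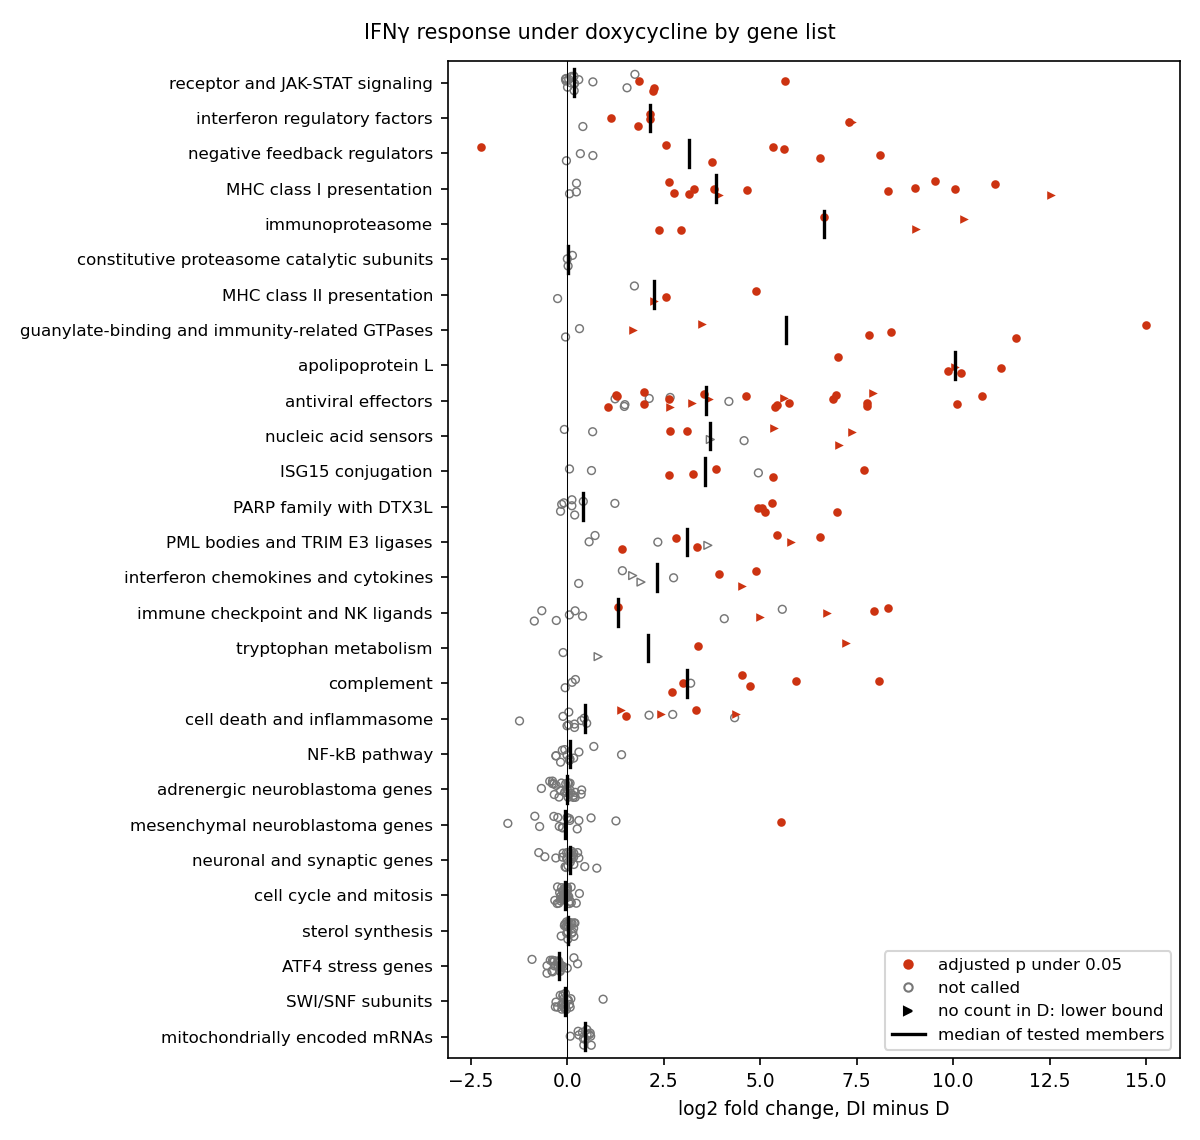
Log2 difference of DI and D for each tested member of each gene list. A point is 1 gene, a triangle is a gene with no count in D set at its lower bound, and the black line is the list median with those bounds. Medians of the interferon lists reach 10.04 for apolipoprotein L. Those of the lists from NF-kB pathway downward lie between -0.23 (ATF4 stress genes) and 0.46 (mitochondrially encoded mRNAs). The latter took 1.30%, 1.08% and 0.856% of counts in D replicates 1 to 3 and 2.58%, 1.12% and 0.768% in DI. Their shift thus lay mainly in replicate 1.

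Lists of cell identity, growth, stress and metabolism held few called genes. None of 13 NF-kB pathway genes passed (median log2 0.06), and none passed among 26 adrenergic neuroblastoma genes (median -0.02), 26 neuronal and synaptic genes (0.07), 35 cell cycle genes (-0.06), 20 sterol synthesis genes (0.02), 24 ATF4 stress genes (-0.23), 23 SWI/SNF subunits (-0.06), 13 mitochondrially encoded mRNAs (0.46) or 7 endothelial, fibroblast and epithelial markers (0.43). With 1.72% of all genes called, lists of this size would hold few calls or none at the background share. The replicate block called 2 higher and 2 lower neuronal genes, 1 higher and 1 lower adrenergic gene, 1 lower cell cycle gene, 1 lower ATF4 stress gene, 1 higher SWI/SNF subunit and 1 higher marker of the other cell types. MYCN, the amplified oncogene of the line, was at 1496, 1052 and 1212 CPM in D and at 1075, 772 and 895 CPM in DI. Each DI library was below its D library of the same number, but MYCN passed only with the replicate block (edgeR adjusted p = 0.00419, against 0.408 without it). Of 16 mesenchymal genes 1 was called, RUNX1, at 0.0649 ± 0.0724 CPM in D and 3.45 ± 1.68 CPM in DI (edgeR adjusted p = 0.0138), and this call was lost without D replicate 2 (0.0763). FN1 (fibronectin) was at 595, 1067 and 876 CPM in D and at 1240, 2662 and 2177 CPM in DI. It was higher in every DI library and passed with the replicate block (edgeR adjusted p = 5.13e-05) or without DI replicate 1 (0.0443), but not in the comparison of all 6 libraries (0.129).

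Of the 273 called genes, 163 belonged to none of the lists, and those named next were chosen after their values were seen. PLAAT4, a phospholipid-modifying tumour suppressor, rose from no count in D to 84.5 ± 29.3 CPM, at least 537-fold above the floor. The butyrophilin BTN3A2, of a family involved in the response of gamma delta T cells to phosphoantigens, rose from none to 56.1 ± 8.90 CPM, at least 357-fold. Its neighbours BTN3A1 and BTN3A3 reached 46.5 ± 5.87 and 36.9 ± 5.24 CPM. VAMP5, a vesicle fusion protein, rose from no count to 24.0 ± 7.03 CPM, at least 152-fold. LGALS3BP, a secreted galectin-binding glycoprotein, rose 24.6-fold to 444 ± 32.8 CPM (edgeR adjusted p = 6.6e-07). TAC3, the precursor of neurokinin B, rose 47.6-fold to 82.7 ± 9.34 CPM (edgeR adjusted p = 3.98e-05), and ABCB1, the multidrug efflux pump, rose 3.82-fold (edgeR adjusted p = 0.00372).

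Called genes lay side by side in 11 places, each with at least 3 of them no more than 100 kb apart. Coordinates are those of GENCODE 29 (GRCh38). Together these places held 44 called genes among 56 tested, against 1.72% called over all genes tested. Each place was drawn around called genes and ends at them, so a high share of called genes was fixed in advance. Whether called genes lay together more often than other genes was not tested. On chr6:32812763-32859585, in the class II region of the MHC, all 6 tested genes rose: HLA-DOB, TAP2, PSMB8, PSMB8-AS1, PSMB9 and TAP1. The 4 IFIT genes on chr10:89283694-89421001 all rose, as did APOL1 to APOL4 on chr22:36140330-36267530. On chr1:88979456-89272804, 7 of 8 tested genes rose, 6 of them GBPs. Every called gene in the 11 places was higher in DI, as were 265 of all 273 called genes.

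The 8 genes that fell did so by less. SOCS2, an inhibitor of growth hormone and STAT5 signalling, was at 22.4, 21.2 and 40.4 CPM in D and at 4.82, 4.61 and 8.24 CPM in DI. It fell by 2.24 ± 0.35 on the log2 scale (edgeR adjusted p = 0.0052), with replicate 3 the highest in both groups. SOCS2-AS1, an antisense transcript at the same locus, was at 3.81, 3.31 and 4.81 CPM in D and at 0.411, 0.461 and 0.991 CPM in DI (log2 -2.66, edgeR adjusted p = 0.00638), and without a stated strand setting reads of this pair cannot be told apart. ZNF778, a KRAB zinc finger gene, was at 60.2, 61.0 and 62.7 CPM in D and at 21.8, 31.0 and 24.2 CPM in DI, 2.39-fold lower (edgeR adjusted p = 0.000669). The long noncoding RNA LINC00641 was 2.01-fold lower (edgeR adjusted p = 0.00532). These 4 were the larger declines. DANCR, a noncoding RNA that hosts small nucleolar RNAs, was at 82.7, 69.3 and 76.8 CPM in D and at 46.0, 37.1 and 35.5 CPM in DI, and its call (edgeR adjusted p = 0.00949) was lost without D replicate 1 (0.0523) or DI replicate 3 (0.0532). RPL23, a ribosomal protein gene, was at 733, 781 and 724 CPM in D and at 587, 575 and 572 CPM in DI (log2 -0.37, edgeR adjusted p = 0.0217), and CLN8 and SCRT1 fell by 0.67 and 0.58 on the log2 scale. The calls of RPL23, CLN8 and SCRT1 were lost on leaving out any 1 of the 6 libraries. Each such fit called 5 lower genes, of which 5 were among the 8 in 4 of the fits and 4 were in the fits without D replicate 1 or DI replicate 3.

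**Figure D4:**
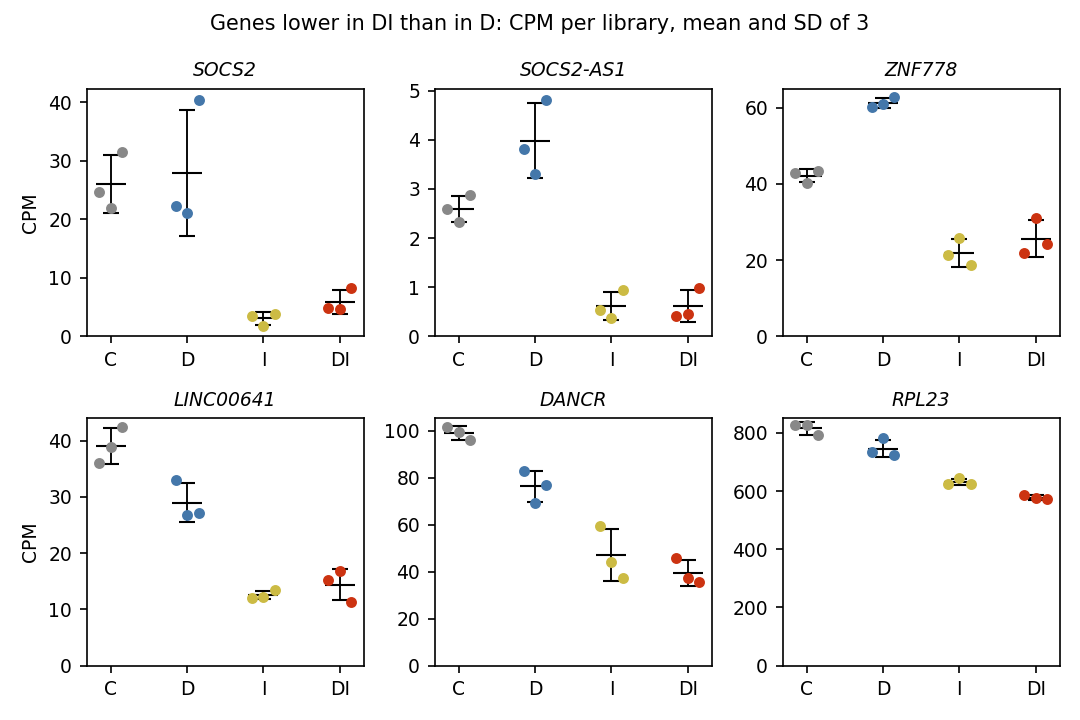
Level of 6 of the genes called lower in every library of D, DI, C and I, in TMM-scaled CPM on linear axes from 0. In each panel the 3 DI points lie below the 3 D points, and the I points lie below the C points.

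The same IFNγ treatment without doxycycline changed a largely overlapping set of genes. I against C called 350 genes, 332 higher (2.1% of those tested) and 18 lower (0.114%). Of these, 257 genes were called in both comparisons, 94.1% of those called in DI against D and 73.4% of those called in I against C. The comparisons share no library, but they come from 1 fit with 1 filter and 1 estimate of the spread per gene. Their calls are therefore not independent. All 273 genes called in DI against D had the same direction in I against C. Each had an edgeR unadjusted p under 0.05 there, as did 1267 of all 15828 genes tested. Of the 265 genes that rose in DI against D, 177 had a smaller log2 rise than in I against C and 88 a larger one. Among the 265, 42 had no count in D and 72 had no D library above the floor. Their fitted rises rest on baselines near 0 and are not measured sizes. Over all genes tested the median difference of the 2 responses was -0.0055 on the log2 scale. The split was not tested.

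Whether the rise itself differed between the arms was tested as an interaction. No gene passed edgeR's adjusted test, 99 had an unadjusted p under 0.05 (0.625% of those tested), and DESeq2 called 2, IL18BP and RIGI. IL18BP, the secreted inhibitor of interleukin 18, was at 8.49, 9.83 and 8.57 CPM in D and at 61.2, 39.0 and 58.6 CPM in DI, whereas it went from 7.13, 7.25 and 6.98 CPM in C to 116, 104 and 120 CPM in I. Its rise was smaller with doxycycline by 1.43 on the log2 scale (log2 difference -1.43, 95% interval -1.93 to -0.93, edgeR unadjusted p = 5.7e-05), and the DI and I libraries did not overlap. For RIGI the difference was -1.74 (-2.48 to -1.0, edgeR unadjusted p = 0.000305). RIGI began higher in D (4.13 ± 1.17 CPM) than in C (1.54, 2.14 and 1.68 CPM) and ended lower in DI than in I (39.6, 45.4 and 28.0 CPM), although DI replicate 1 lay above I replicate 3. IFIT2, of the IFIT family described above, reached 27.2, 26.4 and 20.5 CPM in DI and 49.3, 68.8 and 47.3 CPM in I. The difference of its rises was -2.05 (-2.92 to -1.18, edgeR unadjusted p = 0.0003). This difference rests in part on low levels in D and C, since the rise of IFIT2 in DI against D was 5.42 on the log2 scale. SAMHD1 differed by -0.83 (-1.29 to -0.37, edgeR unadjusted p = 0.00233). IKZF4, a zinc finger factor of the Ikaros family, rose by 0.57 from 34.7 ± 1.01 CPM in D (edgeR adjusted p = 0.0213, lost on leaving out any 1 of the 6 libraries at 0.0638 to 0.0953) and by 1.16 in I against C, from 22.8, 26.2 and 20.01 CPM in C. These genes were picked for the size and test of this difference among called genes, and none passed after adjustment over all genes in the edgeR fit without the block. With the replicate block within each arm, 4 genes did, each with a smaller rise in the doxycycline arm: IL18BP (edgeR adjusted p = 0.00375), RIGI (0.00727), SAMHD1 (0.00174) and FN1 (0.0009). For IRF1, which reached 381, 409 and 442 CPM in I, the difference of the rises was -0.28 with an interval of -0.75 to 0.18. That of B2M was 0.03 (-0.43 to 0.48), so that the intervals leave room for a smaller rise in either arm.

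**Figure D5:**
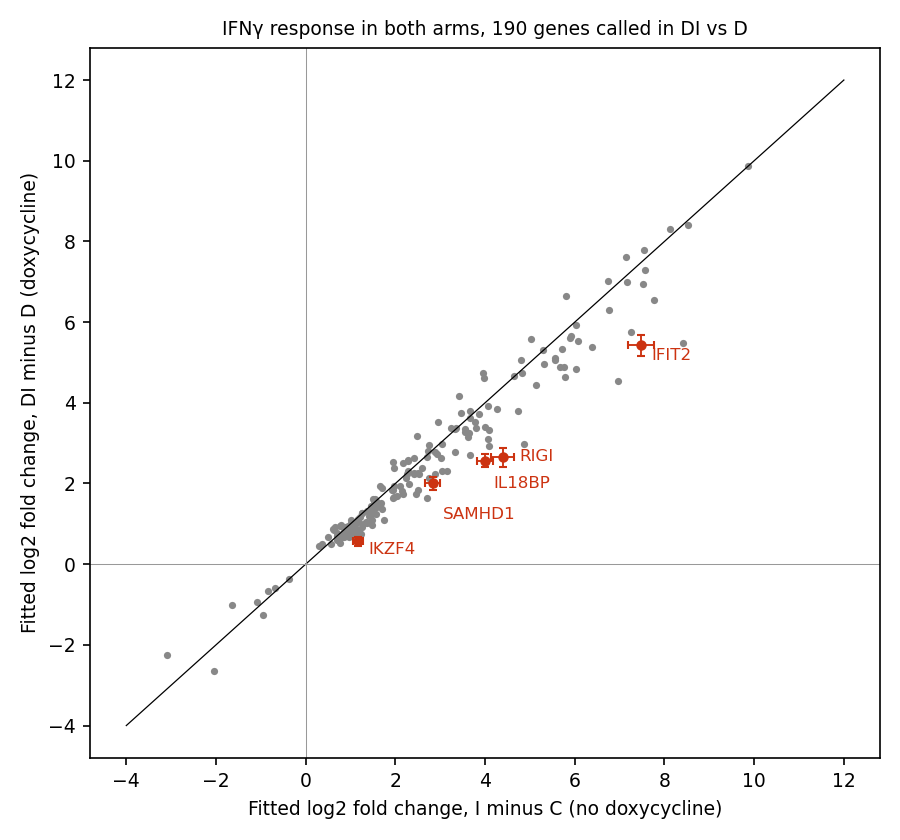
Log2 fold change in the doxycycline arm (DI against D, vertical axis) and without doxycycline (I against C, horizontal axis) for the 190 genes called in DI against D with a mean of at least 0.1 CPM in both D and C. Bars are standard errors, the line marks equal changes, and the labelled genes IL18BP, RIGI, IFIT2, SAMHD1 and IKZF4 lie below it.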

How the data were processed

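RNA was sequenced from 12 libraries, 3 in each of 4 groups, on an Illumina instrument with paired ends. The authors deposited raw counts per gene; the aligner, counter, strand setting and genome build are not given in the sources used here, and the submitters' processing notes name DESeq2. Gene coordinates were taken from GENCODE 29, which held all 43769 gene identifiers, and 43736 were found in a table of current names. The authors' own comparison tables hold fold changes and p-values, which were not used, and 18 per-library columns in them were not used.

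Counts were scaled by TMM, filtered with filterByExpr (minimum count 10) and fitted over all 12 libraries with edgeR's quasi-likelihood test (R 4.3.3, edgeR 4.0.16, limma 3.58.1). Contrasts were DI minus D, I minus C and their difference, with Benjamini-Hochberg adjustment over the 15828 genes tested and a threshold of 0.05. The test was tried on simulated data before use. The simulated libraries carried no effect of replicate number, so this check does not cover the pairing of libraries given below. RPKM was the mean CPM per kilobase of exon. Folds against groups with no count were computed from 3 counts per library, a mean of 0.157 CPM in D. With 1 to 3 counts in D, ratios carry an exact counting interval. List summaries and motif matches used Python 3.11.15, pandas 2.3.3 and scipy 1.17.1, the first promoter of each symbol being used.

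Members and gene lists were chosen with earlier results of these data known. Named genes were the 15 largest called changes in each direction with a mean of at least 1 CPM, up to 5 called and 3 uncalled members per list, a short set of pathway genes, the 5 largest differences in CPM, and the 5 smallest p-values in the difference of the arms. Other list members, and genes outside the lists, were named after their values were seen. The replicate numbers paired the libraries of D and DI: the correlations of their deviations from the group means were 0.713, 0.839 and 0.814 for equal numbers and -0.66 to -0.15 for unequal ones, and the labels do not say what a number marks. Alternatives were DESeq2 (1.42.0), other scalings, no filter, the 6 libraries alone, the replicate block and leaving out each library. Results for a few of the named genes are not reported here.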

Additional observations from a re-analysis of the deposited data

How the results depend on the processing

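The count of called genes in DI against D moved with the model more than with the scaling. DESeq2 called 442 genes (406 higher, 36 lower) and the replicate block 706 (596 higher, 110 lower), or 1499 (1035 higher, 464 lower) when fitted to the 6 libraries alone, and the block within each arm 1770 (1105 higher, 665 lower). Those 6 libraries without the block gave 4 lower genes, an adjusted p under 0.01 gave 5 and a minimum log2 change of 1 gave 4. Without any 1 library of D or DI, 210 to 244 genes were called, 205 to 239 higher and 5 lower. The difference of the arms, with no call in edgeR, had 2 in DESeq2 and 4 with the replicate block within each arm (FN1, IL18BP, RIGI and SAMHD1). The block also brought in BST2, CASP8, CIITA, CXCL9, FN1 and MYCN, as given beside them, and changed no other call of a named gene. The cause of these shifts was not tested.

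Leaving out 1 library turned the sign of uncalled genes: JAK1 ranged from -0.0126 to 0.195, CANX from -0.0866 to 0.201, DBH from -0.951 to 1.23 and TH from -1.20 to 0.88 on the log2 scale. In the 6 libraries alone, C4A, C4B, CLN8, HLA-DOB, IKZF4, LINC00641, RPL23, SCRT1 and SOCS3 were no longer called. CASP1 and MLKL, called over all 12 libraries, did not pass the filter there and were not tested. The gain of the interferon lists in share of counts, 0.879 percentage points, was 0.864 to 0.897 without any 1 library, a check chosen after seeing the data. Genes at 1 to 3 counts in D have folds known only within wide counting intervals.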
